A study of Mus musculus with 96 samples.

Results

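The 7 genes described here, Eomes, Neurod1, Igfbpl1, Dcx, Sox11, Sox4 and Tubb3, are used as marks of newborn neurons and of the progenitors they come from. They were chosen by symbol. All 7 were found among the 32594 rows of the count tables, and all 7 passed the filter on low counts in each of the comparisons below. Bulk RNA-seq libraries came from 96 tissue samples of adult male C57BL/6 mice bought at 8 to 10 weeks of age. Mice received a controlled cortical impact on the left side through a craniectomy (TBI) or a sham procedure of anesthesia and scalp opening without craniectomy, and were treated with candesartan (CD), an angiotensin receptor blocker, at 0.1 mg/kg/day or with vehicle (VH). Sham + VH and TBI + VH, and likewise Sham + CD and TBI + CD, had 4 libraries each from each of 3 regions of the injured side, namely hippocampus, thalamus and hypothalamus, for each of 2 time points, 3 and 29 days after injury (3 and 29 dpi).

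The injury groups therefore differ from their shams by the craniectomy as well as by the impact. All mice had a first injection at 6 h. Mice of the 3 dpi cohort had further injections at 24 and 48 h, while those of the 29 dpi cohort had an osmotic pump implanted at 24 h, so the time points also differ in how the drug was given. The 4 RNA samples of highest quality in each group had been sequenced. The labels do not say which regions came from the same mouse.

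In the adult dentate gyrus, radial glia-like stem cells divide and give rise to intermediate progenitors, then to neuroblasts and immature neurons, and at last to granule neurons that join the hippocampal circuit. Each step is marked by a wave of transcription factors and cytoskeletal proteins. Eomes is a T-box transcription factor of intermediate progenitors. Neurod1 is a basic helix-loop-helix (bHLH) factor needed for newborn granule neurons to survive and mature. Igfbpl1 is a secreted protein related to the insulin-like growth factor binding proteins and is found in neuroblasts. Dcx, or doublecortin, binds microtubules in migrating neuroblasts and immature neurons. Sox11 and Sox4 are closely related SoxC factors that switch on neuronal genes. Tubb3 encodes the neuronal class III beta-tubulin, which is made by young and mature neurons alike. In a bulk sample, fewer cells of a type and less RNA per cell cannot be told apart.

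Levels are given in CPM, counts scaled to the size of the library with TMM factors, on 1 scale for all 96 libraries. Library totals ran from 6663629 to 38589791 counts, and the shallowest was Sham + CD replicate 1 of the hippocampus at 29 dpi. Because CPM favours long transcripts, the members were compared with each other per kilobase of annotated exon. In the hippocampus of Sham + VH mice at 3 dpi, Tubb3 stood at 155.4 ± 2.91 CPM per kb (SD, n = 4) and Neurod1 at 7.12 ± 1.09. Sox11 at 2.04 ± 0.342, Dcx at 1.96 ± 0.178 and Sox4 at 1.94 ± 0.205 were close to each other on this scale. Igfbpl1 at 0.866 ± 0.250 and Eomes at 0.670 ± 0.904 were the lowest. Tubb3 was thus far above the genes of the transient stages, and the Eomes value had a spread larger than its mean.

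The members lie on different chromosomes of GRCm38 (mm10), in GENCODE vM21: Neurod1 at chr2:79452521-79456751, Igfbpl1 at chr4:45809468-45826923, Tubb3 at chr8:123411424-123422015, Eomes at chr9:118478212-118486132, Sox11 at chr12:27334264-27342574, Sox4 at chr13:28948919-28953713 and Dcx at chrX:143855842-143933311. Neurod1 overlaps Cerkl on its own strand and the antisense gene Gm26755. Tubb3 overlaps Gm20388 on its own strand, and Eomes and Sox4 each have an antisense gene, Gm33460 and Gm26735. The libraries were made with a stranded kit but the strand setting of the counting was not given, so reads of these partners cannot be told apart from those of the members. The promoters of Neurod1 and Sox4 are shown because these were the members that passed the test after injury. They are the 250 bases before the RefSeq start in GRCm38.p6, read 5′ to 3′ on the minus strand, at chr2:79456637-79456886 and chr13:28953700-28953949. Capitals mark matches to CANNTG, the E-box that bHLH factors such as Neurod1 bind, which reads the same on both strands.
Neurod1: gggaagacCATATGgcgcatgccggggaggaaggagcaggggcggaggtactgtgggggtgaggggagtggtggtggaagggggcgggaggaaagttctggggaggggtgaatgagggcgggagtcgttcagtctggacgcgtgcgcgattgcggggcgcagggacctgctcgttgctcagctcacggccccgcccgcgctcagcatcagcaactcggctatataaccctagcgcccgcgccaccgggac
Sox4: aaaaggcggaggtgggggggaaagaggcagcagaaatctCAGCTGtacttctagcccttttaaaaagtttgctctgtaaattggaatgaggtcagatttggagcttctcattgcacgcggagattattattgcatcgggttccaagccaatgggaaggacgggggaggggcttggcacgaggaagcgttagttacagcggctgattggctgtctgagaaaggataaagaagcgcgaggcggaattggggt
Each held 1 match. Such a match was present in 66.2% of the 32851 promoters of this length, so its presence sets neither gene apart, and no binding was measured here.

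The first question was what the injury itself did in the hippocampus at 3 dpi. A gene is said here to rise or fall, or to be called, where edgeR's quasi-likelihood test gave a Benjamini-Hochberg adjusted p under 0.05 over all genes tested and the log2 fold change was beyond 0.32. In TBI + VH against Sham + VH, none of the 7 genes was called by edgeR or by DESeq2, and none had an unadjusted p under 0.05. Of the 16756 genes tested, edgeR called 10.7%, and 25.1% had an unadjusted p under 0.05. Among so few genes, counts of 0 do not stand out beside these shares. Neurod1 was 0.24 lower on the log2 scale (SE 0.13, 95% interval -0.51 to 0.03, adjusted p = 0.269). Sox4 was 0.24 higher (SE 0.12, 95% interval -0.01 to 0.49, adjusted p = 0.220). Dcx was at -0.12 (SE 0.10, 95% interval -0.32 to 0.09), Sox11 at -0.02 (SE 0.14, 95% interval -0.31 to 0.28) and Tubb3 at -0.04 (SE 0.08, 95% interval -0.21 to 0.12). Igfbpl1 at 0.37 (SE 0.24, 95% interval -0.13 to 0.88) and Eomes at -0.82 (SE 0.74, 95% interval -2.38 to 0.74) were less precise. Without Sham + VH replicate 3, which had 8.41 CPM of Eomes beside 0.583 to 1.08 CPM in the other 3, the Eomes value was 0.79 in the other direction (adjusted p = 0.486). The groups overlapped for every member.

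**Figure D1:**
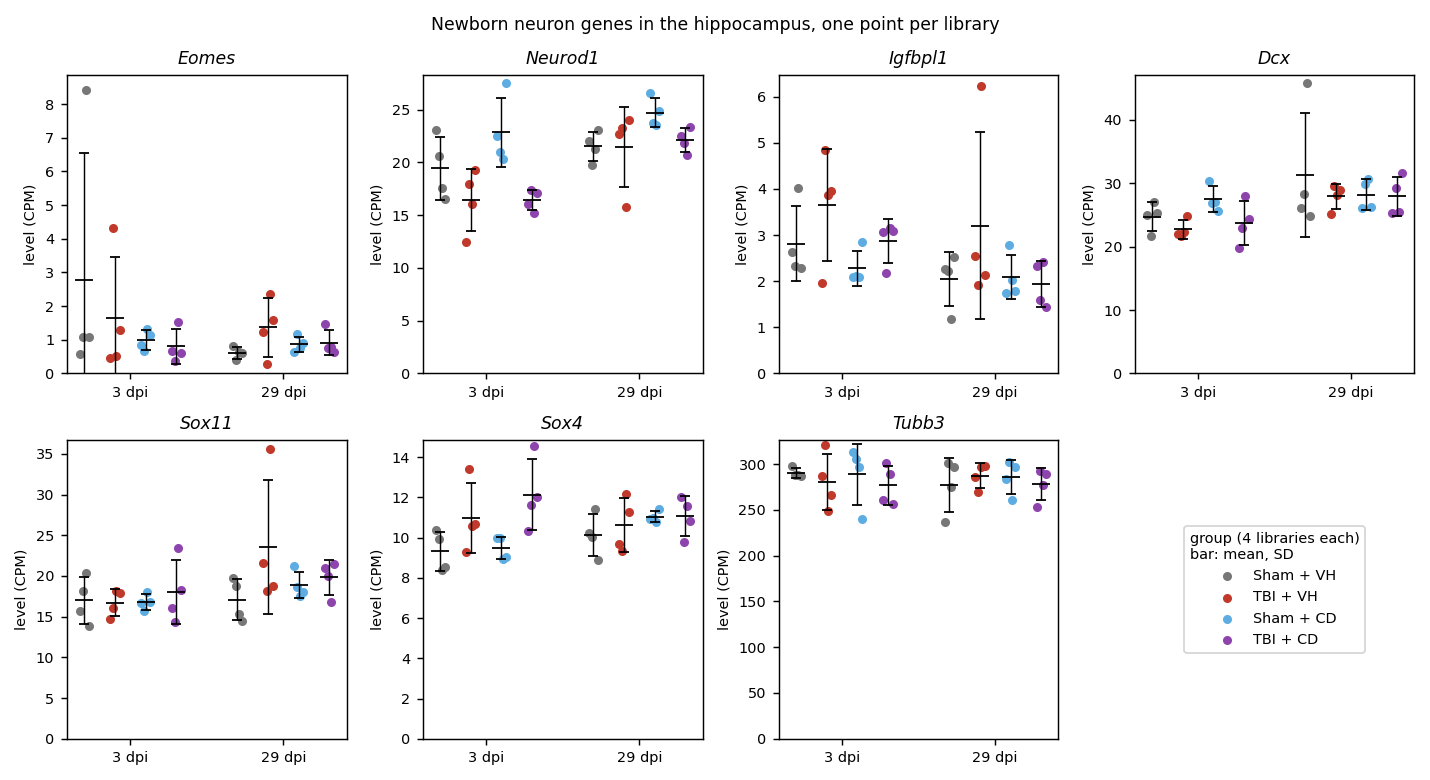
Level of each gene in CPM in the 32 hippocampal libraries, 1 point per library, coloured by group and split by time point, with the mean and SD of the 4 libraries of a group in black. Neurod1 is lower in TBI + CD than in Sham + CD at 3 dpi, and single high libraries stand out for Eomes, Igfbpl1, Sox11 and Dcx.

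Under candesartan the same comparison called a pair of genes. In TBI + CD against Sham + CD, a comparison that shares no libraries with the former, 2 of the 7 members were called, Neurod1 lower and Sox4 higher, beside 20.1% of all genes. Neurod1 measured 22.5, 21.0, 20.3 and 27.6 CPM in the 4 Sham + CD libraries. It measured 16.1, 17.4, 15.2 and 17.1 CPM in the 4 TBI + CD libraries. The lowest Sham + CD library thus lay above the highest TBI + CD library, and the groups did not overlap. The share of all genes without overlap was not counted in this or later comparisons. In this one, 43.2% of all genes had an unadjusted p under 0.05. Neurod1 fell by 0.49 on the log2 scale (SE 0.13, 95% interval -0.76 to -0.22, edgeR adjusted p = 0.00695), from a mean of 22.9 ± 3.28 to 16.4 ± 0.982 CPM (SD, n = 4). It stayed called in each of the 8 fits that left out 1 library, with adjusted p between 0.00782 and 0.0328, and under each of the 7 other settings tried, with adjusted p between 0.00132 and 0.00905. The vehicle groups had 23.1, 20.6, 17.6 and 16.5 CPM in Sham + VH and 12.4, 17.9, 16.1 and 19.3 CPM in TBI + VH. There the 2 groups overlapped, and the size of the difference varied with the library. Mean Neurod1 was 16.4 CPM in both TBI + CD and TBI + VH, 19.4 CPM in Sham + VH and 22.9 CPM in Sham + CD. With Sham + VH as the baseline, Neurod1 in TBI + CD was not called. In the 8 fits that left out 1 library it was then at -0.32 to -0.15 (edgeR adjusted p between 0.131 and 0.505).

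Sox4 measured 9.99, 9.96, 8.94 and 9.04 CPM in Sham + CD. It measured 10.3, 11.6, 14.5 and 12.004 CPM in TBI + CD. All 4 TBI + CD libraries lay above all 4 Sham + CD libraries, by a small margin for the lowest. How common such a separation is among all genes was not counted. The log2 fold change was 0.35 (SE 0.12, 95% interval 0.10 to 0.59, edgeR adjusted p = 0.0306). The call was lost when TBI + CD replicate 3 was left out (0.26, adjusted p = 0.107), and also without Sham + CD replicate 3 (0.32, adjusted p = 0.0763) or replicate 4 (0.32, adjusted p = 0.0776). Sox4 was the only member called in TBI + CD against Sham + VH, where 12.1% of all genes were called, at 0.38 (SE 0.12, edgeR adjusted p = 0.0307), and its groups overlapped there. Eomes was at -1.76 in that comparison (unadjusted p = 0.0393, adjusted p = 0.144) and at -0.15 without Sham + VH replicate 3, and the other 5 members lay between -0.24 and 0.09. This call too was lost in 4 of the 8 fits that left out 1 library, without Sham + VH replicate 3 or 4 and without TBI + CD replicate 3 or 4, with adjusted p between 0.0530 and 0.120. It was also lost with the mean log2 CPM of choroid plexus genes as a covariate (0.34, adjusted p = 0.211). The same held with only the groups compared in the fit (0.39, adjusted p = 0.0542).

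Dcx was 0.22 lower in TBI + CD than in Sham + CD (SE 0.10, unadjusted p = 0.0383, edgeR adjusted p = 0.0943), with libraries from 19.7 to 28.0004 CPM against 25.5 to 30.3 CPM, and the call was not made. Sox11 at 0.10 (SE 0.14), Tubb3 at -0.07 (SE 0.08), Igfbpl1 at 0.32 (SE 0.25) and Eomes at -0.28 (SE 0.87) were not called either. The 2 genes that passed moved in opposite directions. How much of the RNA of either came from newborn cells was not tested, and no region difference of Sox4 given below was called. The median log2 fold change of the 7 was -0.07 beside a median of -0.00242 over all genes.

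**Figure D2:**
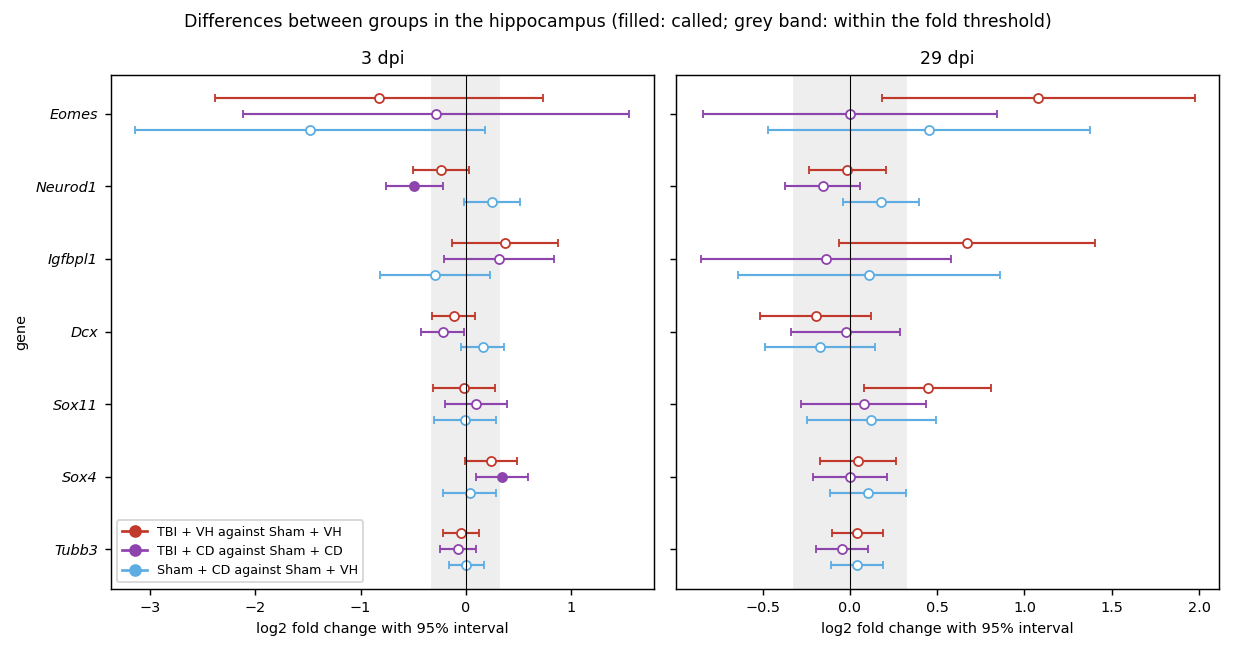
Log2 fold change of each gene with its 95% interval for 3 comparisons in the hippocampus at 3 dpi (left) and 29 dpi (right). Filled points passed the test and the fold threshold, open points did not, and the grey band marks changes within 0.32. The filled points are Neurod1 and Sox4 in TBI + CD against Sham + CD at 3 dpi.

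To ask whether the injury moved the genes over both treatments, the mean of the 2 injured groups was set against the mean of the 2 sham groups, 8 libraries against 8. This contrast was chosen after the values had been seen. It called 15.8% of all genes at 3 dpi and 1.62% at 29 dpi. At 3 dpi Neurod1 was called at -0.36 (SE 0.09, 95% interval -0.55 to -0.17, edgeR adjusted p = 0.00443). Sox4 was 0.29 higher (SE 0.08, 95% interval 0.12 to 0.47, adjusted p = 0.0106), short of the fold threshold. Dcx was 0.17 lower (SE 0.07, adjusted p = 0.0674). No member was called at 29 dpi, where Neurod1 was at -0.09 (SE 0.07) and Sox4 at 0.02 (SE 0.07).

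In the hippocampus no member was called between candesartan and vehicle within the sham or within the injured mice. In Sham + CD against Sham + VH at 3 dpi no member was called by edgeR or DESeq2 and none had an unadjusted p under 0.05. Of all genes, edgeR called 1.5%, and 15% had an unadjusted p under 0.05. Neurod1 was 0.25 higher (SE 0.13, 95% interval -0.02 to 0.51, adjusted p = 0.378). Dcx was at 0.16 (SE 0.10), Igfbpl1 at -0.29 (SE 0.25) and Eomes at -1.48 (SE 0.79), or 0.12 without Sham + VH replicate 3, while Sox11, Sox4 and Tubb3 lay between -0.00529 and 0.04. In TBI + CD against TBI + VH, 0% of the genes were called by edgeR and none by DESeq2, with 732 at an unadjusted p under 0.05. No member was among these 732, Neurod1 was at -0.00463 (SE 0.13, 95% interval -0.28 to 0.27) and Sox4 at 0.15 (SE 0.12, 95% interval -0.10 to 0.39). Igfbpl1 was at -0.34 (SE 0.24, 95% interval -0.85 to 0.16) and Eomes at -0.94 (SE 0.83), and Dcx, Sox11 and Tubb3 lay between -0.03 and 0.11. The interaction of injury and candesartan asks whether the injury effect itself differed between the treatments. At 3 dpi edgeR called no gene for it (2196 had an unadjusted p under 0.05), while DESeq2 called 330 genes, none of them a member. It was -0.25 for Neurod1 (SE 0.18, 95% interval -0.63 to 0.13, adjusted p = 0.596) and 0.11 for Sox4 (SE 0.17, adjusted p = 0.837). It was 0.54 for Eomes (SE 1.14), or -1.07 when Sham + VH replicate 3 was left out and -0.00561 when TBI + CD replicate 3 was, and those of Dcx, Igfbpl1, Tubb3 and Sox11 lay between -0.10 and 0.11. The larger Neurod1 difference under candesartan was thus not shown to differ from that under vehicle.

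The hippocampal libraries differed in their content of choroid plexus, the epithelium that makes cerebrospinal fluid and lies against the hippocampus. The summed level of the 10 genes of its list ran from 179.2 to 6775 CPM in Sham + VH at 3 dpi and from 8.59 to 152.0 CPM in TBI + VH. It ran from 43.1 to 93.3 CPM in the Sham + CD libraries and from 12.2 to 2684 CPM in the TBI + CD libraries. All 10 were called lower in TBI + VH against Sham + VH, and 1 of 10 was called, higher, in TBI + CD against Sham + CD. With the mean log2 CPM of these 10 genes as a covariate, the Neurod1 difference between TBI + CD and Sham + CD stayed called.

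The stages around the members were described with lists of genes. Of 8 genes of dividing cells, 7 rose in TBI + VH against Sham + VH at 3 dpi and none fell, with a median log2 fold change of 3.39 beside -0.01 over all genes, of which 1507 of 16756 rose and 289 fell (10.7% in all). Among them were Ube2c at 3.70 (SE 0.64), Ccnb1 at 3.59 (SE 0.70), Mki67 at 3.54 (SE 0.50) and Top2a at 3.54 (SE 0.51), all part of the cell division machinery. Ccnd2, a G1 cyclin of neural progenitors, was the exception in this list at -0.23 (SE 0.06), short of the fold threshold. Of 10 tested genes of neural stem cells and radial glia-like cells, 6 rose, among them Vim at 3.85 (SE 0.25), Gfap at 3.62 (SE 0.17), Fabp7 at 1.84 (SE 0.28) and Nr2e1 at 0.55 (SE 0.10). Vim, Gfap and Fabp7 are also made by reactive astrocytes. All 8 microglial genes, 5 of 8 astrocyte genes and 5 of 8 genes of oligodendrocyte precursors rose in the same comparison, so which cells were dividing cannot be told apart here.

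For the lists of later stages, counts of 1 of 9 or 1 of 10 are near the 10.7% of all genes called. Of 9 further genes of intermediate progenitors and early neuroblasts 1 rose, Rgcc at 0.42 (SE 0.11), and the median of the list was -0.11. Of 22 further genes of immature neurons 1 rose, Tubb2b at 0.33 (SE 0.10), a beta-tubulin of growing neurons and glia, and the median was -0.03. Of 10 genes of dentate granule neurons 1 fell, Tdo2 at -0.87 (SE 0.22), an enzyme of tryptophan breakdown, and the median was -0.20. None of 10 genes of mature neurons was called, Camk2a and Snap25 among them, and their median was -0.19. The median of the 7 members was -0.04.

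In TBI + CD against Sham + CD, where 2410 of the 16756 genes tested were higher and 950 lower (20.1% in all), the same lists gave 7 of 8 dividing cell genes higher, 8 of 10 stem cell genes higher and 5 of 10 granule neuron genes lower. The granule neuron genes that fell were Tdo2 at -1.36 (SE 0.22), Dsp at -0.998 (SE 0.25), Prox1 at -0.78 (SE 0.19), Calb1 at -0.56 (SE 0.08) and Stxbp6 at -0.49 (SE 0.13). Of the 22 immature neuron genes 4 were called, a share near that of all genes. Of these 1 rose, Tubb2b at 0.45 (SE 0.10), and 3 fell, Plxna4 at -0.54 (SE 0.10), Dclk1 at -0.35 (SE 0.05) and Neurod6 at -0.34 (SE 0.12). Apart from Tdo2 and Tubb2b, the genes named from the granule and immature neuron lists in this comparison, and Ccnd2 above, were chosen after their values were seen. Prox1 is the transcription factor that sets granule neuron identity, and Calb1 encodes calbindin, which granule neurons gain as they mature. Dclk1 is a relative of Dcx. Neurod6 is in the list of pyramidal neurons as well as in that of immature neurons. Neurod1, whose level fell in the same libraries, is also made by granule neurons past the newborn stage, and how much of its RNA came from newborn cells was not tested.

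Genes that mark neighbouring tissue and other cells were checked in the same way. In TBI + VH against Sham + VH at 3 dpi none of 8 genes of subventricular and olfactory neuroblasts was called (Gad1 and Dlx1 among them), none of 8 of pyramidal neurons, none of 8 of ependyma, none of 6 tested of hypothalamus neurons and 1 of 8 of thalamus neurons, which rose. With 10.7% of all genes called, counts of 0 or 1 in lists of this size do not stand out. Of 8 endothelial genes 1 fell, and of 10 T cell and natural killer cell genes 1 had enough counts to be tested and was not called. In TBI + CD against Sham + CD, where 20.1% of all genes were called, 2 of the 8 subventricular genes fell and 3 of the 8 ependymal genes rose. The part of these cells in the values of the members was not tested.

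**Figure D3:**
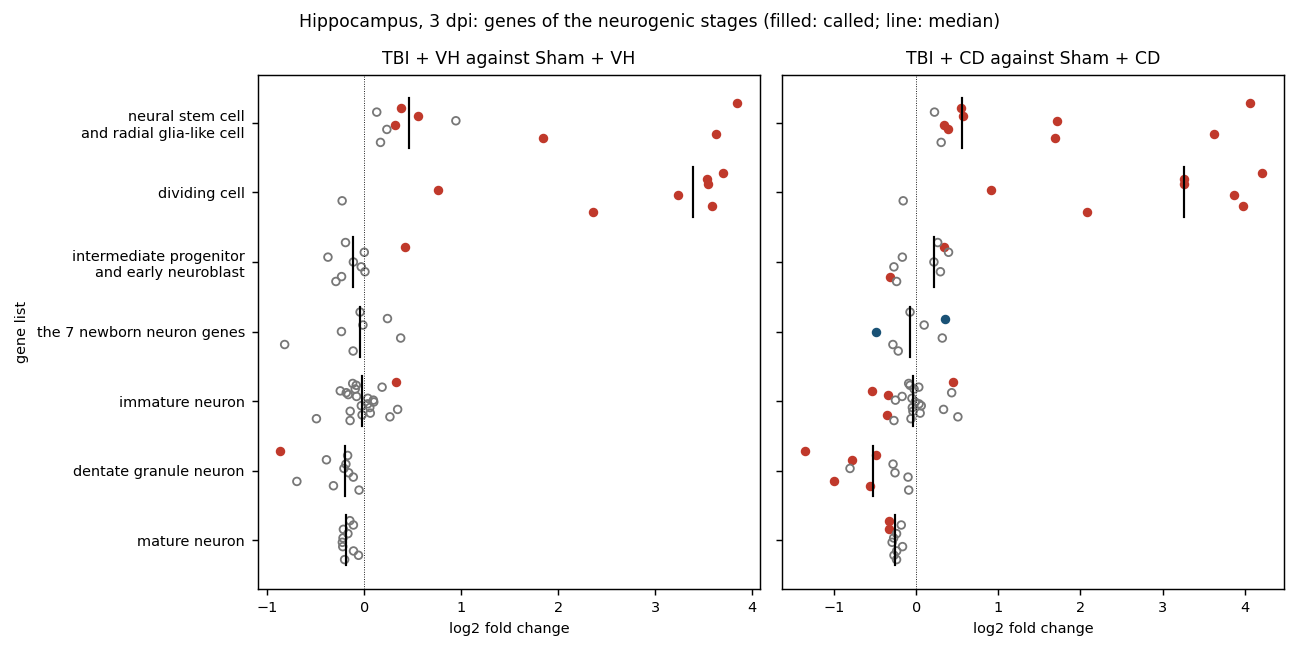
Log2 fold change of each tested gene of 6 lists and of the 7 members in the hippocampus at 3 dpi, for TBI + VH against Sham + VH (left) and TBI + CD against Sham + CD (right). Filled points were called and black lines mark the median of a list. The medians of the dividing cell genes are 3.39 and 3.26, while those of the members are -0.04 and -0.07.

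At 29 dpi few genes differed between the groups. Against Sham + VH, 0.529% of all genes were called for TBI + VH and 0.119% for TBI + CD, and 0.356% were called between TBI + CD and Sham + CD. Sham + CD against Sham + VH, TBI + CD against TBI + VH and the interaction called 0% by edgeR, with 810, 893 and 890 genes at an unadjusted p under 0.05, and 3, 4 and 4 genes by DESeq2. No member was called in any of these 6 comparisons by either tool. In TBI + VH against Sham + VH, Eomes was 1.08 higher (SE 0.42, unadjusted p = 0.0189) and Sox11 0.45 higher (SE 0.17, unadjusted p = 0.0200), with edgeR adjusted p of 0.467 and 0.470. Igfbpl1 was 0.67 higher (SE 0.35, unadjusted p = 0.0719). Of the lists, 2 stem cell genes, Vim and Gfap, and 3 microglial genes were still higher, and none of the 7 tested dividing cell genes, the 9 of intermediate progenitors or the 22 of immature neurons was called. Neurod1 did not overlap between Sham + CD, at 23.5 to 26.6 CPM, and either Sham + VH, at 19.8 to 23.1 CPM, or TBI + CD, at 20.7 to 23.3 CPM, but the differences of 0.18 (SE 0.10) and -0.16 (SE 0.10) were not called.

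These 3 genes shared their highest library. Sox11 measured 21.6, 18.2, 35.6 and 18.8 CPM in TBI + VH and 19.7, 18.8, 15.3 and 14.5 CPM in Sham + VH. Igfbpl1 measured 2.55, 1.92, 6.23 and 2.13 CPM in TBI + VH and 2.26, 2.21, 1.18 and 2.52 CPM in Sham + VH. Eomes measured 1.23, 0.274, 2.36 and 1.59 CPM in TBI + VH and 0.821, 0.391, 0.633 and 0.605 CPM in Sham + VH. Replicate 3 of TBI + VH was the highest library for all 3 genes, and the other 3 libraries of the group overlapped with Sham + VH. Without it the differences were 0.19 for Sox11, 0.17 for Igfbpl1 and 0.77 for Eomes. Neurod1 was at 15.8 CPM in that library, the lowest of the group, against 22.7 to 24.0 CPM in the others.

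Dcx at 29 dpi measured 26.1, 28.3, 45.8 and 24.8 CPM in Sham + VH, against 25.2 to 29.6 CPM in TBI + VH, 26.1 to 30.6 CPM in Sham + CD and 25.3 to 31.6 CPM in TBI + CD. A single Sham + VH library, replicate 3, stood apart and the other 15 libraries lay within a narrow range. The same library had the highest summed level of the hypothalamus neuron list among the 16, at 105.5 CPM against 1.82 to 19.7 CPM in the others. Most of it was Pomc at 100.4 CPM, the gene of a hypothalamic and pituitary peptide precursor. The high sum was thus that of Pomc and not of the list as a whole. Whether tissue of a neighbouring region had a part in the Dcx value was not tested.

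Comparing the time points directly, no member was called in Sham + VH at 29 dpi against 3 dpi, where 4.16% of genes were called. The time points are separate cohorts, so time cannot be told apart from cohort, age and surgery. Dcx was 0.36 higher (SE 0.13, unadjusted p = 0.00903, edgeR adjusted p = 0.0684) and Eomes 2.08 lower (SE 0.72, unadjusted p = 0.00636, edgeR adjusted p = 0.0552). DESeq2 called Eomes there (-2.15, adjusted p = 0.0158). Without the 29 dpi library just described the Dcx difference was 0.10 (adjusted p = 0.700), and without Sham + VH replicate 3 at 3 dpi the Eomes difference was -0.48 (adjusted p = 0.675). Leaving out other single libraries brought calls, of Eomes without 3 dpi replicate 1 (-2.42, adjusted p = 0.0298) or 4 (-2.36, adjusted p = 0.0482) and of Dcx without 29 dpi replicate 1 (0.45, adjusted p = 0.0369) or 4 (0.45, adjusted p = 0.0292). The injury effect at 29 dpi minus that at 3 dpi called 3.16% of genes and no member, with Sox11 at 0.46 (SE 0.23, adjusted p = 0.439) and Eomes at 1.90 (SE 0.98, adjusted p = 0.451). Sox11 was at 0.22 without TBI + VH replicate 3 of 29 dpi, and Eomes at 0.29 without Sham + VH replicate 3 of 3 dpi.

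The regions were compared in Sham + VH to see where the members are made in the absence of injury and drug. At 3 dpi 40.9% of genes were called between hippocampus and thalamus, 46.7% between hippocampus and hypothalamus and 28.6% between thalamus and hypothalamus. At 29 dpi the shares were 39.3%, 45% and 32.9%. The members called were 5, 4 and 5 of 7 at 3 dpi and 4, 4 and 4 of 7 at 29 dpi. With so many genes different between regions, these shares of the members are read only gene by gene.

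Neurod1 was highest in the hippocampus. In Sham + VH at 3 dpi it measured 23.1, 20.6, 17.6 and 16.5 CPM in that region. The thalamus had 3.87, 13.2, 5.37 and 9.37 CPM and the hypothalamus 2.51, 2.30, 1.94 and 2.72 CPM. No values overlapped between the regions. The difference was 1.30 between hippocampus and thalamus (SE 0.31, edgeR adjusted p = 0.000503), 3.08 between hippocampus and hypothalamus (SE 0.34, edgeR adjusted p = 3.41e-10) and 1.78 between thalamus and hypothalamus (SE 0.35, edgeR adjusted p = 5.59e-05). At 29 dpi the order was the same, at 0.93 (SE 0.29), 2.94 (SE 0.32) and 2.01 (SE 0.32), and all 3 were called.

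Igfbpl1 too had its highest mean in the hippocampus. At 3 dpi it stood at 2.81 ± 0.812 CPM, beside 0.796 ± 0.398 for thalamus and 1.43 ± 0.408 for hypothalamus (SD, n = 4 each). It was 1.85 higher in hippocampus than thalamus (SE 0.29, edgeR adjusted p = 7.02e-07) and 1.03 higher than in hypothalamus (SE 0.27, edgeR adjusted p = 0.00108). At 29 dpi the former was called at 1.498 (SE 0.40) and the latter was not, at 0.58 (SE 0.38). Thalamus and hypothalamus differed by -0.83 at 3 dpi (edgeR adjusted p = 0.0224) and by -0.92 at 29 dpi (edgeR adjusted p = 0.0532), and the call at 3 dpi was lost without thalamus replicate 2 or 4 or hypothalamus replicate 1 or 2, with adjusted p up to 0.110, and with only the groups compared in the fit (adjusted p = 0.102).

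Dcx and Sox11 had their highest level in the hypothalamus and not in the hippocampus. Dcx at 3 dpi stood at 24.7 ± 2.25 CPM in hippocampus, 28.8 ± 5.41 in thalamus and 40.0 ± 3.07 in hypothalamus (SD, n = 4 each). It was 0.65 lower in hippocampus than hypothalamus (SE 0.12, edgeR adjusted p = 5.97e-06), and hippocampus and thalamus did not differ beyond their spread (-0.20, SE 0.12). At 29 dpi the hippocampal difference from hypothalamus was -0.33 (SE 0.12, edgeR adjusted p = 0.0167), and that call was lost without hippocampus replicate 1, 2 or 4 or hypothalamus replicate 1, 3 or 4, with values from -0.32 to -0.21, while it was -0.59 (adjusted p = 3.3e-06) without hippocampus replicate 3. It was also lost with only the groups compared in the fit (adjusted p = 0.0933) and without the low-count filter (-0.31). Sox11 stood at 17.0 ± 2.85 CPM in hippocampus, 11.9 ± 0.894 in thalamus and 21.6 ± 2.69 in hypothalamus at 3 dpi, so that its lowest level was in the thalamus. Its level was 0.53 higher in hippocampus than thalamus (SE 0.12, edgeR adjusted p = 0.000246) and 0.84 lower in thalamus than hypothalamus (SE 0.12, edgeR adjusted p = 2.43e-07). Its difference between hippocampus and hypothalamus of -0.30 (SE 0.12) fell short of the fold threshold at 3 dpi and was called at 29 dpi at -0.39 (SE 0.14, edgeR adjusted p = 0.0174). That call was lost without hippocampus replicate 3 or 4 or hypothalamus replicate 1, with adjusted p between 0.0526 and 0.0871.

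Tubb3 was lowest in the hippocampus. It stood at 290.3 ± 5.43 CPM there at 3 dpi, at 654 ± 48.1 in the thalamus and at 460.3 ± 86.6 in the hypothalamus, a difference of -1.15 from thalamus (SE 0.09, edgeR adjusted p = 2.89e-14) and of -0.62 from hypothalamus (SE 0.09, edgeR adjusted p = 1.44e-07). The 10 mature neuron genes had another order, with a median summed level of 13057 CPM in hippocampus, 7376.5 in thalamus and 5496 in hypothalamus. Sox4 was near even, between 8.12 ± 1.45 and 9.90 ± 2.07 CPM at 3 dpi, and none of its 6 region differences was called. Eomes was called in 1 of the 6, at 3.10 between hippocampus and thalamus at 3 dpi (SE 0.97, edgeR adjusted p = 0.00423), and without Sham + VH replicate 3 of the hippocampus it was 1.49 (adjusted p = 0.190).

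**Figure D4:**
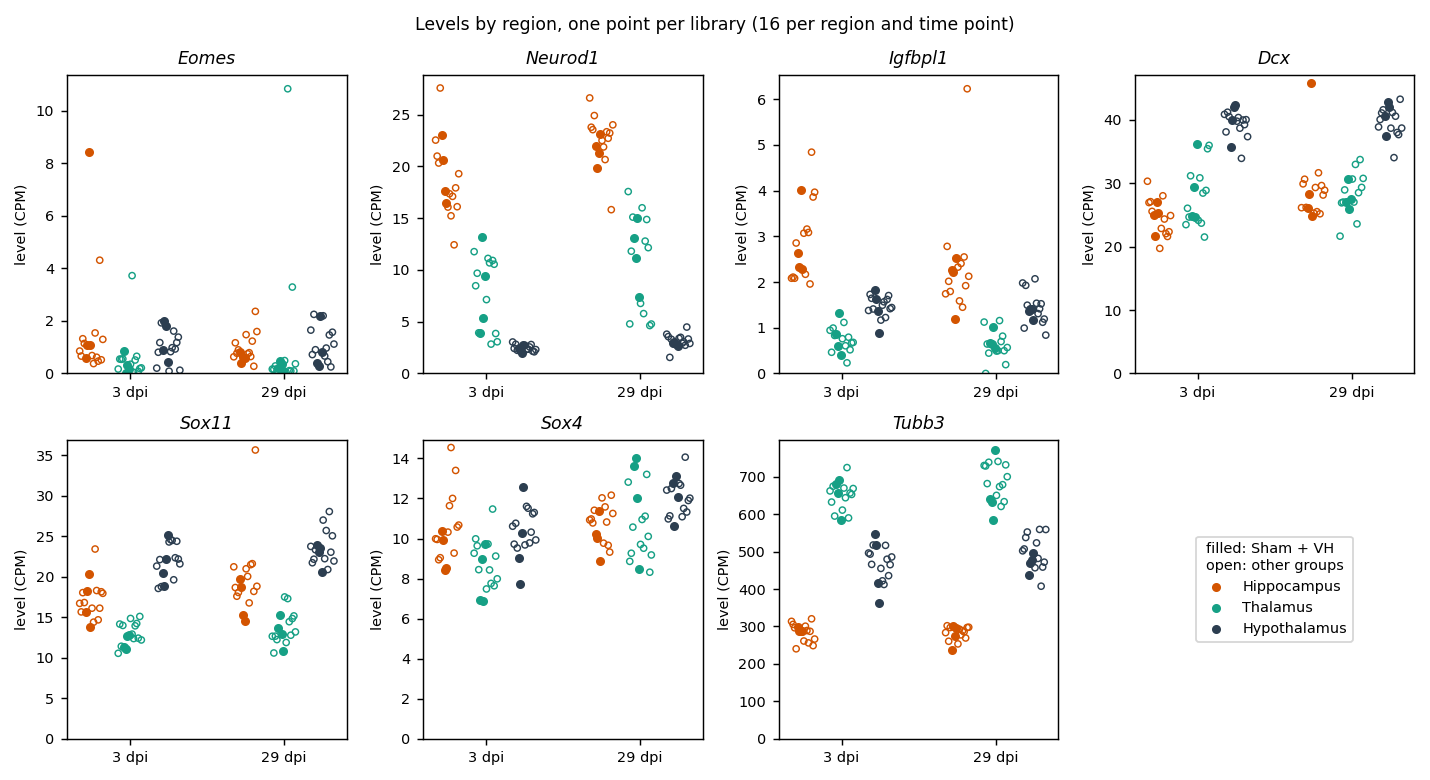
Level of each gene in CPM in the 96 libraries by region and time point, with Sham + VH libraries filled and the other groups open. Neurod1 is highest in hippocampus, Dcx and Sox11 in hypothalamus and Tubb3 in thalamus, and Neurod1 in thalamus spreads from 2.83 to 17.6 CPM.

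In thalamus and hypothalamus no member was called in any of the 12 comparisons with Sham + VH, by edgeR or by DESeq2, and 1 of the tests of members had an unadjusted p under 0.05. The shares of all genes called were 0.298% for TBI + VH and 0.418% for TBI + CD in the thalamus at 3 dpi and 0.00583% for TBI + VH in the hypothalamus at 29 dpi. In the other 9 comparisons edgeR called 0%, with 361 to 2269 genes at an unadjusted p under 0.05, and DESeq2 called 0 to 17 genes. The member below 0.05 was Eomes in the thalamus of TBI + CD at 29 dpi, at 3.42 (SE 1.45, unadjusted p = 0.0254, edgeR adjusted p = 0.959), where replicate 3 had 10.8 CPM and the others 0.0332 to 0.490 CPM. Among the other members the largest difference in these comparisons was -0.46 for Igfbpl1 (SE 0.53) in TBI + VH in the thalamus at 29 dpi.

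The injury effect at 3 dpi was also set between regions. Hippocampus minus thalamus called 3.88% of genes and hippocampus minus hypothalamus 5.82%, and neither called a member. Neurod1 was at -0.08 (SE 0.44) and -0.24 (SE 0.49), and Sox4 at 0.06 (SE 0.19) and 0.11 (SE 0.19). For Neurod1 the 95% intervals ran from -0.98 to 0.81 and from -1.22 to 0.75.

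Neurod1 in the thalamus spread widely between libraries. The 32 thalamic libraries ran from 2.83 to 17.6 CPM, and the highest of the 16 libraries stood 4.66 times above the lowest at 3 dpi and 3.80 times at 29 dpi, against 2.22 and 1.68 times in the hippocampus. The genes that varied most like it, chosen after the values had been seen, were Rtn4rl2, Nhlh2 and Tspan13. Nhlh2, a bHLH factor like Neurod1, ran from 10.3 to 26.6 CPM over the same libraries, with few libraries in the middle of that range. Rtn4rl2 ran from 0.139 to 10.5 CPM. Values of 1 library share its depth and its dissected piece of tissue.

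In the hippocampus the 3 genes closest to each member over the 32 libraries were named by a fixed rule, by the correlation of log2 CPM after the mean of the group was taken off, among 14895 genes that reached 1 CPM on average. For Dcx these were Cask, Cdh7 and Pde4b (r = 0.82, 0.79 and 0.78), for Neurod1 Fat4, Miat and Tnrc6c (0.79, 0.75 and 0.75) and for Sox11 Lpin2, Xpr1 and Kpnb1 (0.79, 0.76 and 0.73). For Sox4 they were Dtwd2, Rab14 and Senp1 (0.70, 0.67 and 0.66), and for Tubb3 Cend1, Aldoc and Gdap1l1 (0.90, 0.86 and 0.86). For Eomes they were Dtna, Ebf3 and 9330162012Rik (0.76, 0.75 and 0.73), and for Igfbpl1 AK083547, Plekha2 and Mfap4 (0.79, 0.76 and 0.75). Without the 2 libraries farthest from the median of the member, these r ran from 0.52 to 0.85. Some differed between the time points, as for Lpin2 with Sox11 (0.35 at 3 dpi and 0.98 at 29 dpi) and Ebf3 with Eomes (0.92 and 0.29). No member was among the 3 genes closest to another. Aldoc, which is close to Tubb3 here, is an astrocyte gene.

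Among the 21 pairs of members, the closest over the 32 hippocampal libraries was Eomes with Igfbpl1. Its Pearson r was 0.62 (permutation p = 0.00363, adjusted over the 21 pairs p = 0.0762) and its Spearman rho 0.59 (permutation p = 0.00204, adjusted p = 0.0428), with libraries permuted within groups. Without the 2 libraries farthest in Eomes r was 0.56, and it was 0.74 at 3 dpi and 0.58 at 29 dpi, or 0.35 at 29 dpi without TBI + VH replicate 3. Sox11 with Igfbpl1 had r = 0.58 (adjusted p = 0.146) and Eomes with Sox11 r = 0.49 (adjusted p = 0.215), neither past the correction, and the Pearson r of the first pair missed it too. Without TBI + VH replicate 3 at 29 dpi, Sox11 with Igfbpl1 had r = 0.33. For Dcx and Neurod1 with these 3 genes, r over both time points lay between -0.29 and 0.08. With 1 library left out, Neurod1 with Igfbpl1 ran from -0.43 to 0.28 and Neurod1 with Sox11 from -0.44 to 0.08. Within a time point too the values moved with single libraries. Neurod1 with Igfbpl1 had r = 0.48 at 3 dpi, or 0.07 without TBI + VH replicate 1, and -0.73 at 29 dpi, or -0.24 without TBI + VH replicate 3. Neurod1 with Sox11 had r = -0.67 at 29 dpi and 0.16 without that same library. Dcx with Igfbpl1 had r = -0.50 at 29 dpi, with -0.22 when Sham + VH replicate 3 was left out and -0.75 when TBI + VH replicate 3 was. Dcx and Neurod1 had r = -0.10 with each other.

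**Figure D5:**
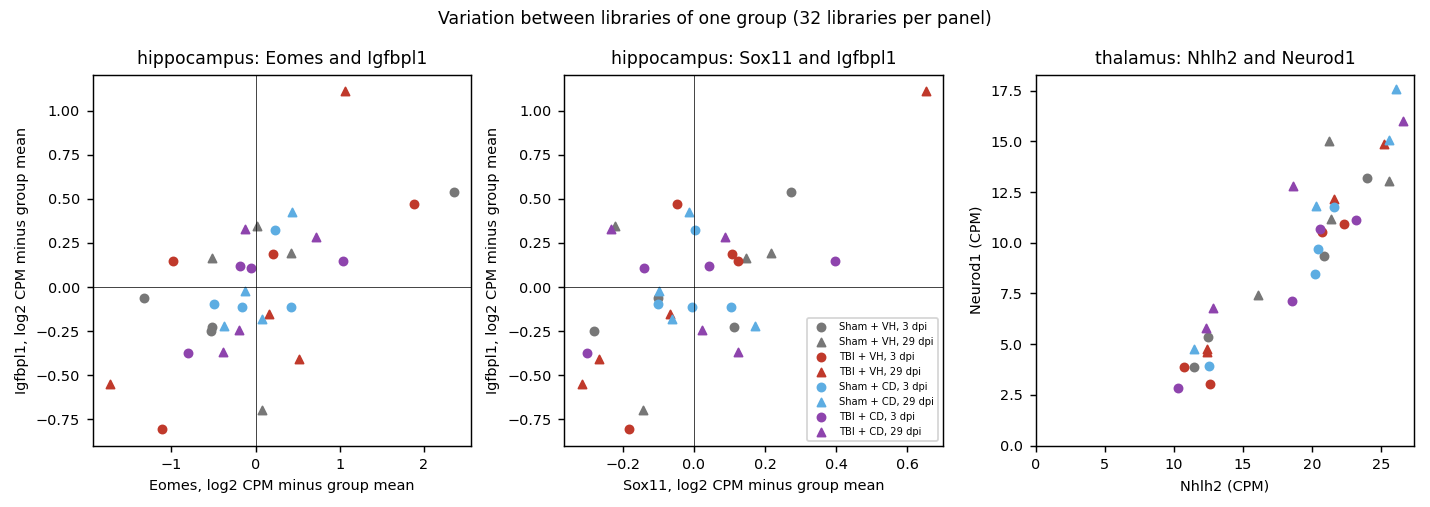
Variation between libraries within groups, with 32 libraries in each panel, circles for 3 dpi and triangles for 29 dpi. The left and middle panels plot hippocampal log2 CPM minus the group mean for Igfbpl1 against Eomes and against Sox11, and the right panel plots thalamic Neurod1 against Nhlh2 in CPM. TBI + VH replicate 3 at 29 dpi is the highest point for Igfbpl1 in the left and middle panels, and Nhlh2 runs from 10.3 to 26.6 CPM.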

How the data were processed

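RNA of 96 tissue samples, 4 per group, region and time point, was sequenced in paired-end reads of 75 bp. The authors aligned the reads to mm10 and counted them per gene with HTSeq 0.9.1, and the deposited values are raw counts, which were used as they are. Tool names come from the submitters' processing notes; the strand setting of the counting was not given in the sources used here. No column was left unmatched to a sample.

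Counts were tested with edgeR 4.0.16 (TMM factors, filterByExpr, quasi-likelihood F test) in R 4.3.3, 2-sided, in 1 fit per region and time point with its 4 groups, or over the 3 regions of a time point or both time points of the hippocampus where these were compared. Regions were treated as independent. P-values were adjusted by Benjamini-Hochberg over all genes tested, and a gene was called at an adjusted p under 0.05 and a log2 fold change beyond 0.32. Intervals are 95% confidence intervals of the log2 fold change, with an SE based on the spread between libraries. The labels do not say that the libraries of a group are separate mice, so p-values judge a difference against the spread between these samples. Levels are TMM-scaled CPM. Log2 CPM used a prior count of 2. DESeq2 1.42.0, RLE factors, no low-count filter, an adjusted p alone, only the groups compared, a replicate block, a choroid plexus covariate and leaving out each library were tried as alternatives, and the injury effect averaged over both treatments and correlations of members without each library were added after seeing the data. The fit was tested on simulated counts. No 2 libraries of a group agreed within sampling noise (chi-square per degree of freedom at least 2.75).

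Of the 32594 symbols 71.2% matched GENCODE vM21. Promoters came from RefSeq for 6 of the 7 members. All members were to be named in each comparison, and where fewer are named the rest are given by their range. Of other lists, up to 4 called genes with the largest change in TBI + VH against Sham + VH at 3 dpi were named, or the 2 of highest level where none was called, and for each member the 3 genes most like it. The members and lists were chosen with earlier results of these data known.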

Additional observations from a re-analysis of the deposited data

Results flagged for a closer look

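Each of the 7 genes was examined in each of the 24 groups of 4 libraries, 168 sets of values that share libraries. In 12 of the 168, 1 library stood apart from the other 3 by Dixon's criterion. Chance gives about 1 set in 20, so the count is near that given by chance. In the hippocampus at 29 dpi these were Dcx at 45.8 CPM in Sham + VH replicate 3 (others 24.8 to 28.3), and Neurod1 at 15.8 CPM (others 22.7 to 24.0) and Igfbpl1 at 6.23 CPM (others 1.92 to 2.55) in TBI + VH replicate 3. In the hippocampus at 3 dpi they were Eomes at 8.41 CPM in Sham + VH replicate 3 (others 0.583 to 1.08), Igfbpl1 at 2.85 CPM in Sham + CD replicate 4 (others 2.08 to 2.11), Igfbpl1 at 2.17 CPM in TBI + CD replicate 2 (others 3.07 to 3.16) and Tubb3 at 298.4 CPM in Sham + VH replicate 1 (others 287.1 to 288.1). In the thalamus Eomes stood apart in 4 groups. At 3 dpi it was at 0.168 CPM in Sham + CD replicate 1 (others 0.538 to 0.554) and at 3.72 CPM in TBI + CD replicate 2 (others 0.0432 to 0.511). At 29 dpi it was at 3.29 CPM in TBI + VH replicate 2 (others 0.0906 to 0.367) and at 10.8 CPM in TBI + CD replicate 3 (others 0.0332 to 0.490). In the hypothalamus Sox11 was at 19.6 CPM in TBI + CD replicate 4 at 3 dpi (others 24.3 to 24.6).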

How the results depend on the processing

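The number of members called was equal to the reported one in 34 of 34 comparisons with RLE factors, in 33 of 34 each with an adjusted p alone, no low-count filter and the replicate block (2 in TBI + CD against Sham + CD at 3 dpi, as without it), and in 32 of 34 with DESeq2. It was equal in 13 of 14 with the choroid plexus covariate, 27 of 32 with only the groups compared and 283 of 312 fits that left out 1 library. Counts between regions moved most often, by 1 or 2 members. In TBI + CD against Sham + VH at 3 dpi the 1 call became 0 with the covariate and 0 with only the groups compared, and 0 to 1 when 1 library was left out. The 2 calls in TBI + CD against Sham + CD became 1 to 2 when 1 library was left out, and the 4 between hippocampus and hypothalamus at 29 dpi became 2 to 4, with 2 without hippocampus replicate 4 or hypothalamus replicate 1. In Sham + VH at 29 against 3 dpi, 0 became 1 with DESeq2 and 0 to 1 when 1 library was left out. The injury effect averaged over both treatments called 1 member at 3 dpi where TBI + VH against Sham + VH called 0. The cause of these changes was not tested. DESeq2 called more genes in the hippocampus, 440 against 251 in Sham + CD against Sham + VH and 330 against 0 in the interaction at 3 dpi, and 141 against 89 in TBI + VH against Sham + VH, 53 against 20 in TBI + CD against Sham + VH and 170 against 60 in TBI + CD against Sham + CD at 29 dpi. In the thalamus at 3 dpi it called 91 against 50 for TBI + VH, 9 against 0 for Sham + CD and 126 against 70 for TBI + CD, each against Sham + VH, and in the hypothalamus at 29 dpi 4 against 1 for TBI + VH. Correlations of same-numbered samples ran from -0.65 to 0.56 between groups of a region and from -0.34 to 0.65 between regions of a group. Hippocampus with thalamus in Sham + CD at 29 dpi was the 1 of 24 pairs of regions in which all 4 were over 0.1 (0.12 to 0.53) and each sample correlated best with its own number, a hint from the data and not the design, so the numbers were not taken to pair samples. Eomes and Igfbpl1 rest on few reads, with 3 to 199 and 11 to 104 counts per hippocampal library, which limits both.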
